A study of Mus musculus with 4 samples.

Results

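A set of 49 genes that build and run the mitotic spindle was followed in lineage-depleted bone marrow of Cyba-/- and WT mice. The members were chosen by symbol from the 22520 genes of the deposited tables, with earlier results of these data known. They comprised 10 cyclins, kinases and phosphatases of mitotic entry, 12 kinetochore and checkpoint genes, and 9 kinesins. The others were 7 genes of the midzone, passenger complex and cytokinesis, 5 spindle assembly genes, 4 anaphase genes and 2 genes of chromosome structure. The 49 members lie on 17 chromosomes. All 49 had a usable count, and all 49 passed the filter on low counts that left 13867 genes for testing.

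The groups were 2 Cyba-/- and 2 WT mice of strain C57BL/6, with 1 RNA-seq library for each mouse. The product of Cyba, p22phox, anchors the catalytic core of several NADPH oxidases in the membrane, and without it they release no superoxide. Marrow from leg and hip bones was cleared of red cells by lysis and of cells with mature lineage markers on magnetic beads, which leaves a mixed fraction rich in stem and progenitor cells. The labels do not give the age or sex of the mice or how the allele was made, and they name no batch. Summed estimated counts were 23137945 and 22892020 in Cyba-/- 1 and Cyba-/- 2, against 23707388 and 22424963 in WT 1 and WT 2. The deleted gene had 28 and 32 reads in the Cyba-/- libraries, against 1347 and 875 in the WT libraries, so it was low where the labels place the deletion. Even this gene, with a log2 fold change of -5.19 ± 0.28 (SE), did not pass edgeR's quasi-likelihood test (adjusted p = 0.309, the lowest of all tested genes), though DESeq2 called it. The stem and progenitor genes Kit, which encodes a cytokine receptor, and Cd34, a surface glycoprotein, had at least 3487 reads in every library. These 2 markers of the labelled fraction were thus present. Other genes of the same list of 8 had few reads. Procr had 35 and 25 reads in Cyba-/-, against 28 and 11 in WT. Mecom had 102 and 89 reads, against 134 and 57, and Slamf1 had 62 and 123, against 108 and 141. Genes of maturing neutrophils, antibody-secreting cells and erythroid cells were well above 0 in all 4 libraries.

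A dividing cell makes much of its mitotic machinery anew in G2 phase, and some of the proteins are destroyed as it leaves mitosis. Cyclin A and cyclin B switch on CDK1, microtubules of the spindle attach to kinetochores at the centromeres, and the spindle checkpoint holds back the anaphase-promoting complex (APC/C) until every chromosome is attached. The APC/C with CDC20 then marks securin and cyclin B for destruction, separase cuts cohesin, and the midzone and contractile ring divide the cell. The genes are read together from promoters that often carry a cell cycle homology region (CHR), bound by the DREAM and MuvB complexes, and a CCAAT box, bound by NF-Y. Haematopoietic progenitors divide often, whereas long-term stem cells and mature neutrophils rarely do.

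Most mitotic genes had a lower mean in Cyba-/- marrow, by small amounts, and no single gene passed the test. The log2 fold change, Cyba-/- over WT, in counts scaled by edgeR's TMM factors, was below 0 for 45 of the 49, against 51.0% of all 13867 tested genes, and its median was -0.15, against -0.01 over all tested genes. It ran from -0.40 for Mki67 to 0.10 for Ect2. In edgeR's quasi-likelihood test, 0 of the 49 had an adjusted p under 0.05, as did 0% of all tested genes. At an unadjusted p under 0.05 the count was again 0 of 49 in edgeR, where 3.20% of all tested genes had such a p and 0.447% had it with a lower level in Cyba-/-, and 0 of 49 in DESeq2, where the share was 3.24%. DESeq2 with adjusted p called 0.216% of all tested genes and 0 of the 49, the edgeR likelihood ratio test called 0.159% and 0, and limma-voom called 0% and 0. The smallest edgeR p among the members was 0.15, for Kif20b, with an adjusted p of 0.843. The standard errors of the members lay between 0.11 and 0.32 on the log2 scale, and all 49 fold changes were within 2 standard errors of 0. With 2 mice in a group, this test, which did not use the replicate numbers, did not resolve differences of the size seen. These p-values measure the spread between single mice, including any part shared by libraries of the same number. With the number as a replicate block, edgeR called 1 member, Ccnb1, and 1095 of all genes. The labels do not say that the number marks anything shared. In bulk RNA, fewer dividing cells and less of each transcript per dividing cell cannot be told apart.

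The count of 45 changed when single libraries were left out. Without Cyba-/- 1, 28 of the 49 members were lower in Cyba-/- marrow and their median log2 fold change was -0.01. Without WT 2, 13 of the 49 were lower and the median was 0.04. Without Cyba-/- 2 and without WT 1 the median was -0.29 and -0.31, and the count of lower members was up to 46. Leaving out 1 library also upsets the balance of the replicate numbers. Both libraries numbered 2 were above both numbered 1 for 41 members, or 83.7%, against 26.8% of all tested genes. Cyba-/- 1 was below WT 1 and Cyba-/- 2 below WT 2 for 40 members, or 81.6%, against 36.3% of all tested genes. The labels do not say that these libraries are paired. The plot of fold changes with each library left out shows the whole set of genes sliding up or down together.

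**Figure D1:**
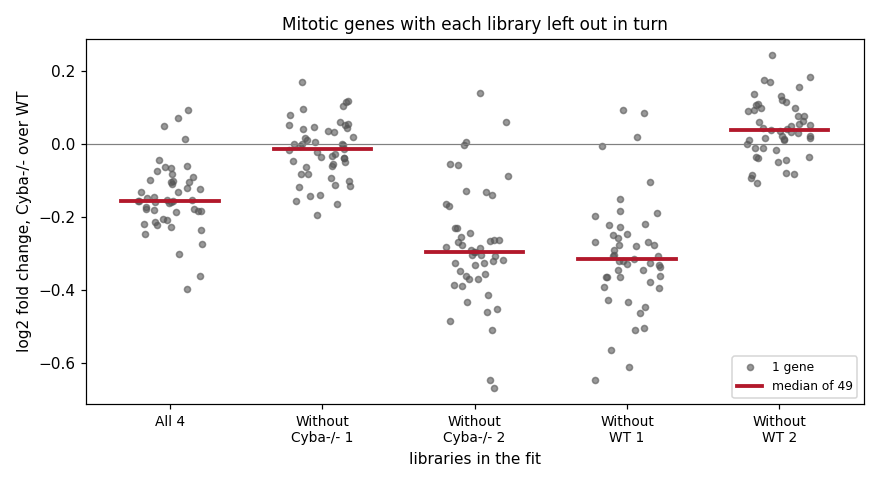
Each point is 1 of the 49 mitotic genes, with its log2 fold change (Cyba-/- over WT) on the y axis for all 4 libraries and with each library left out in turn, and red bars mark the median of the 49. The median is -0.15 with all 4 libraries, -0.01 without Cyba-/- 1, -0.29 without Cyba-/- 2, -0.31 without WT 1 and 0.04 without WT 2.

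Across the 4 libraries the members kept a nearly common order. In 36 of the 49, or 73.5%, the level in CPM, read counts scaled to a common library size, placed the libraries, from low to high, as Cyba-/- 1, WT 1, Cyba-/- 2 and WT 2, an order seen in 17.4% of all tested genes and in 21.15% of those with a mean of at least 10 CPM. Cyba-/- 1 was the lowest library for 40 members, or 81.6%, and WT 2 the highest for 44, or 89.8%. Over all tested genes these shares were 33.2% and 38.1%, and over those with a mean of at least 10 CPM 37.3% and 44.6%. The summed level of the 49 was 6902 and 8329 CPM in Cyba-/- 1 and Cyba-/- 2, against 7519 and 9813 CPM in WT 1 and WT 2. The 2 libraries of each genotype lay further apart than the means of the genotypes, and the groups overlapped. Both Cyba-/- libraries were below both WT libraries for 4 members, Bub1, Ttk, Kif20b and Kif15, which is 8.16% of the 49 where 16.1% of all tested genes had that arrangement. Both were above both WT libraries for 3 members, Kif23, Ect2 and Racgap1, where the share over all tested genes was 17.6%. The other 42 overlapped. The plot of the 49 genes by library shows this common order and the few genes that leave it.

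**Figure D2:**
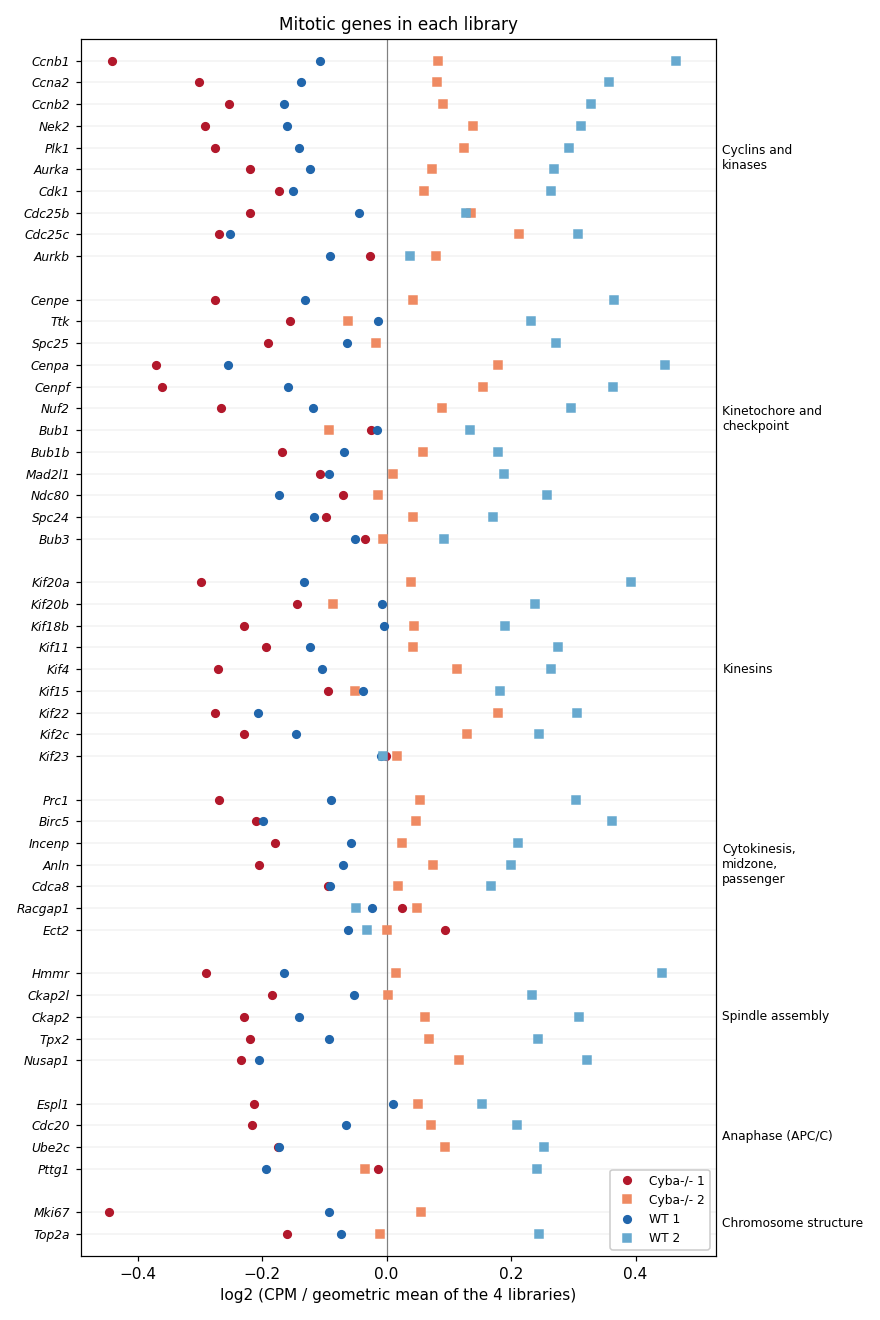
Each row is 1 mitotic gene and each point 1 library, placed by the log2 ratio of its CPM to the geometric mean of the 4 libraries; red and orange are Cyba-/- 1 and 2, dark and light blue are WT 1 and 2. Cyba-/- 1 is leftmost in 40 rows and WT 2 rightmost in 44, whereas Kif23 has its 4 points almost on top of each other. Of all tested genes, 33.2% have Cyba-/- 1 lowest and 38.1% have WT 2 highest.

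The ratio of the highest to the lowest library ran from 1.02 to 1.90, with a median of 1.35, against 1.41 over all tested genes and 1.29 over those with a mean of at least 10 CPM, which every member had. It was over 1.5 for 9 members. These were Mki67 with 1.90, Ccnb1 with 1.87, Cenpa with 1.76, Hmmr with 1.66, Cenpf with 1.65, Kif20a with 1.61, Ccna2 with 1.58, Cenpe with 1.56 and Nek2 with 1.52. Several of these encode proteins that peak late in G2 and mitosis and are then degraded. Whether this has a part in the spread of their RNA was not tested. At the other end, 6 members stayed under 1.2, namely Kif23 with 1.02, Racgap1 with 1.07, Bub3 with 1.10, Ect2 with 1.11, Aurkb with 1.13 and Bub1 with 1.17.

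The promoters of these extremes are shown to let the wide and narrow genes be compared. RefSeq's promoter table (build GRCm38.p6), which runs from 250 bases before to 50 bases after each gene's start, held 42 of the 49 members, and not Ccna2, Cdc25c, Aurkb, Spc24, Kif20a, Incenp and Tpx2. The 3 widest and the 3 narrowest members with a single promoter in that table are written 5′ to 3′ on the gene's own strand, with CHR letters (TTTGAA or TTTAAA, or their reverse complements) and CCAAT (or ATTGG) in capitals.
Mki67, chr7:135716330-135716629, minus strand: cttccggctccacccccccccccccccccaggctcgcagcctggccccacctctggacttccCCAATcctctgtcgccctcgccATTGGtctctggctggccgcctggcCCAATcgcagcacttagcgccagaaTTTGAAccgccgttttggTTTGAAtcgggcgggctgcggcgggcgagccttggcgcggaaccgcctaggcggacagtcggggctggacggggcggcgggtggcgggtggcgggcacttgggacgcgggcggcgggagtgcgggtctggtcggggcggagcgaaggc
Ccnb1, chr13:100786437-100786736, minus strand: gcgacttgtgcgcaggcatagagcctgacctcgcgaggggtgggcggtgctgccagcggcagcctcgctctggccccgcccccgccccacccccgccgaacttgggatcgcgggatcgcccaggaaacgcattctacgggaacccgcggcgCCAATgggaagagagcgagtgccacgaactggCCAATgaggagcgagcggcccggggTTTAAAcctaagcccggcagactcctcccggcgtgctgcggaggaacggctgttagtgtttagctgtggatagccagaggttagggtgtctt
Cenpa, chr5:30666636-30666935, plus strand: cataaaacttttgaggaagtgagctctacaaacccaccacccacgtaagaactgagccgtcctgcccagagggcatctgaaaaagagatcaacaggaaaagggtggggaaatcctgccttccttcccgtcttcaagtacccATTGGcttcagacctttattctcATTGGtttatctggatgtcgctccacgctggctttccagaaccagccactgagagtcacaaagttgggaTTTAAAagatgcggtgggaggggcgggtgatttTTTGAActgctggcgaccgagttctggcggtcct
Bub1, chr2:127831810-127832109, minus strand: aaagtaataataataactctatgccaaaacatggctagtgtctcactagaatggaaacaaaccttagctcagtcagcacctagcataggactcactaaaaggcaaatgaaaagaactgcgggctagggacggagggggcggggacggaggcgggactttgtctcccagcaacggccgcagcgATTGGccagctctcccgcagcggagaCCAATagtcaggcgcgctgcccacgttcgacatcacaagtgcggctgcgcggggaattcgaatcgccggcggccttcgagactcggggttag
Racgap1, chr15:99651607-99651906, minus strand: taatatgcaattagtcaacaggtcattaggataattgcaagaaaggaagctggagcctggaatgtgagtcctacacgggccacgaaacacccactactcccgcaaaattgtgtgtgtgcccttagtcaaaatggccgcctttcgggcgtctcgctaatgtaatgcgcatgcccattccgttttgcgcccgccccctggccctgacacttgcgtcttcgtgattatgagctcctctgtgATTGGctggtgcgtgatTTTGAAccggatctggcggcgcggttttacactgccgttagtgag
Kif23, chr9:61946750-61947049, minus strand: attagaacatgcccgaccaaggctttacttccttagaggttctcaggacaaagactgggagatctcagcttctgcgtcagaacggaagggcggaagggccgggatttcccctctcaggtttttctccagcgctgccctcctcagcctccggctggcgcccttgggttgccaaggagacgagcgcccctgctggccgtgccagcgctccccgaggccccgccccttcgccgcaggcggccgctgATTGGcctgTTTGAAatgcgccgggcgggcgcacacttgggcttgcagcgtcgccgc

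Each of these 6 windows held CCAAT letters, and 5 of them held CHR letters, Bub1 being the exception. In Mki67 the CHR letters began at -116 and -98 from the start, downstream of 3 CCAAT boxes between -188 and -137. Ccnb1 had CCAAT at -99 and -67 and a CHR at -42, and Cenpa had CCAAT in reverse at -109 and -86 and CHR letters at -17 and 17. In Racgap1 and Kif23 a reverse CCAAT began at -12 and -7, and the CHR letters followed at 6 and 3, just past the annotated start. In all 5, CCAAT letters stood upstream of the CHR letters, in wide and narrow genes.

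Over the set, TTTGAA or TTTAAA stood on either strand in 35 of the 42 members, or 83.3%, against 30.6% of 27025 genes in the table and 23.2% of 10343 tested genes. TTTGAA alone was in 76.2% of members and 20.2% of all genes. TTTAAA, which reads the same on both strands, was in 21.4% and 14.9%. CCAAT was in 32 members, or 76.2%, against 41.1% of all genes and 43% of tested genes. The E2F type letters TTCCCGC or TTGGCGC, the second of which can share letters with a reverse CCAAT, were in 5 members, or 11.9%, against 7.79% of all genes and 13.5% of tested genes. The 7 members with a window but no CHR letters in it were Cdc25b, Nek2, Bub1, Mad2l1, Nuf2, Nusap1 and Pttg1. A match of letters is a description and not a binding site.

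Among the cyclins and kinases, 9 of 10 had a negative fold change and the median was -0.15. Ccnb1 encodes cyclin B1, the main partner of CDK1 at mitotic entry, and its gene lies at chr13:100778650-100786570 on the minus strand of GRCm38. Ccnb1 stood at 129.7 and 186 CPM in the Cyba-/- libraries, against 164 and 243 CPM in the WT libraries. Cyba-/- 1 was lowest and WT 2 highest, with WT 1 below Cyba-/- 2, so the groups overlapped. Its mean was 158 ± 40.04 CPM in Cyba-/- and 203 ± 56.1 CPM in WT marrow (SD, n = 2 each). Its log2 fold change of -0.36 ± 0.28 (SE) did not pass edgeR's test without a replicate block (adjusted p = 0.843). Ccna2, the gene of cyclin A2, with the most reads of the class, had 254 and 331 CPM in Cyba-/-, against 284 and 401 CPM in WT. It followed the same order and had a log2 fold change of -0.23 ± 0.24. Aurka, the gene of the centrosomal kinase Aurora A, had 66.98 and 82.1 CPM in Cyba-/-, against 71.6 and 94.0 CPM in WT, again in that order, with a log2 fold change of -0.15 ± 0.20.

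Cdc25c, a phosphatase that activates CDK1, had the fewest reads of the class, with 20.0 and 27.9 CPM in Cyba-/-, against 20.2 and 29.8 CPM in WT. Here the libraries numbered 1 of both genotypes were nearly level and so were those numbered 2, and the log2 fold change was -0.06 ± 0.28. Aurkb, the gene of the passenger complex kinase Aurora B, was the 1 member of the class with a higher mean in Cyba-/-, at 136 and 147 CPM, against 130.3 and 142 CPM in WT. The groups overlapped, the log2 fold change was 0.05 ± 0.12, and without Cyba-/- 2 or without WT 1 it was slightly below 0. The other 5 genes, Ccnb2 (cyclin B2), Cdk1, Plk1 (a kinase of spindle assembly and mitotic exit), Nek2 (a centrosome kinase) and Cdc25b (a phosphatase of CDK1), had log2 fold changes between -0.17 and -0.07.

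All 12 kinetochore and checkpoint genes had a negative fold change, with a median of -0.15. Both Cyba-/- libraries were below both WT libraries for 2 of them, or 16.7%, close to the 16.1% of all tested genes. Ttk, at chr9:83834689-83872389 on the plus strand, encodes the checkpoint kinase MPS1. It had 48.8 and 52.0 CPM in the Cyba-/- libraries, against 53.8 and 63.8 CPM in the WT libraries. The groups did not overlap, though Cyba-/- 2 and WT 1 lay close together, and the log2 fold change was -0.22 ± 0.14 (edgeR, adjusted p = 0.843). Bub1, the gene of the kinase that recruits checkpoint proteins and shugoshin to centromeres, lies at chr2:127801122-127831865 on the minus strand. Bub1 measured 109.5 and 104.5 CPM in Cyba-/-, against 110.2 and 122 CPM in WT. The genotypes were separated by less than 1 CPM between Cyba-/- 1 and WT 1, and the log2 fold change was -0.12 ± 0.12.

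Spc25, a subunit of the NDC80 complex that grips microtubule ends, had 42.7 and 48.2 CPM in Cyba-/-, against 46.6 and 58.9 CPM in WT, with a log2 fold change of -0.21 ± 0.17. Its partners in the complex, Ndc80, Nuf2 and Spc24, had log2 fold changes of -0.10, -0.18 and -0.06, and the groups overlapped for all 4 subunits. Ndc80 had the fewest reads of the class, at 45.0 and 46.8 CPM in Cyba-/-, against 41.9 and 56.5 CPM in WT, where the 2 WT libraries enclosed both Cyba-/- libraries. Cenpe, the kinetochore kinesin that moves chromosomes to the spindle equator, had 129.2 and 161 CPM in Cyba-/-, against 143 and 201 CPM in WT, and a log2 fold change of -0.25 ± 0.22. Bub1b, which encodes the checkpoint protein BUBR1, had the most reads of the class, with 179 and 209 CPM in Cyba-/-, against 192 and 227 CPM in WT. Its log2 fold change was -0.11 ± 0.16. Cenpa (the centromeric histone H3 variant), Cenpf (a large kinetochore protein), Mad2l1 (the checkpoint protein MAD2) and Bub3 (the partner of BUB1 and BUBR1) had log2 fold changes between -0.21 and -0.04. Cenpa had the largest standard error of all 49 members, 0.32. Its Cyba-/- 1 and WT 1 libraries stood at 127 and 138 CPM, and Cyba-/- 2 and WT 2 at 186 and 224 CPM.

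Of the 9 kinesins, 8 had a negative fold change and the median was -0.16. Kif20b, at chr19:34922361-34975745 on the plus strand, encodes a kinesin of the midzone and cytokinesis. It had 105 and 109.5 CPM in Cyba-/-, against 116 and 137 CPM in WT. The groups did not overlap, and the log2 fold change of -0.24 ± 0.14 had the smallest p of all members. Kif15, at chr9:122951046-123018733 on the plus strand, encodes a spindle motor that can back up KIF11, and it also kept both Cyba-/- libraries, at 165 and 169.5 CPM, below the WT libraries, at 171 and 199 CPM, with a log2 fold change of -0.15 ± 0.13. Where the groups do not overlap, the sign of the fold change with any 1 library left out is fixed in advance. The log2 fold changes then ran from -0.35 to -0.11 for Kif20b and from -0.25 to -0.03 for Kif15, and some other members also stayed below 0.

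Kif20a, the kinesin that carries the passenger complex to the midzone, had 121 and 153 CPM in Cyba-/-, against 136 and 196 CPM in WT, and a log2 fold change of -0.27 ± 0.23. Kif18b, a kinesin that trims astral microtubules, had 62.6 and 75.7 CPM in Cyba-/-, against 73.2 and 83.8 CPM in WT, and a log2 fold change of -0.18 ± 0.16. In both genes WT 1 lay below Cyba-/- 2, so the groups overlapped. Kif11, the motor that pushes the spindle poles apart, had the most reads of the kinesins, with 272 and 321 CPM in Cyba-/-, against 286 and 377 CPM in WT, and a log2 fold change of -0.16 ± 0.19. Kif2c, the microtubule depolymerase MCAK, had the fewest, with 61.7 and 79.1 CPM in Cyba-/-, against 65.4 and 85.7 CPM in WT, and a log2 fold change of -0.10 ± 0.21. Kif4 and Kif22, both chromosome-bound motors, had log2 fold changes of -0.16 and -0.10.

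The fold change was nearest to 0 in Kif23, at chr9:61915905-61946774 on the minus strand, which encodes the motor subunit of centralspindlin, the complex that bundles midzone microtubules. It had 147 and 149 CPM in Cyba-/-, against 146 and 146.5 CPM in WT, a log2 fold change of 0.01 ± 0.11. Both Cyba-/- libraries were above both WT libraries, by less than 1 CPM at the nearest. Racgap1, at chr15:99620496-99651656 on the minus strand, encodes the other centralspindlin subunit, a GTPase-activating protein. It had 199 and 202 CPM in Cyba-/-, against 192 and 189 CPM in WT, with a log2 fold change of 0.07 ± 0.11. Ect2, at chr3:27097222-27153878 on the minus strand, encodes the exchange factor that centralspindlin recruits to activate RhoA at the furrow. It had 92.3 and 86.5 CPM in Cyba-/-, against 82.8 and 84.6 CPM in WT, with a log2 fold change of 0.10 ± 0.11. None of the 3 passed edgeR's test (adjusted p = 0.974, 0.868 and 0.848). On the TPM scale the direction of the centralspindlin pair turned, with log2 fold changes of -0.08 for Kif23 and -0.03 for Racgap1, and Ect2 had no settled TPM value.

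The midzone, passenger and cytokinesis class had 5 of 7 members with a negative fold change and a median of -0.13. Prc1, the gene of the protein that cross-links midzone microtubules, had 142 and 178 CPM in Cyba-/-, against 161 and 212 CPM in WT, and a log2 fold change of -0.22 ± 0.20. Incenp, the scaffold of the chromosomal passenger complex, had the most reads of the class, with 211 and 243 CPM in Cyba-/-, against 229 and 276 CPM in WT, and a log2 fold change of -0.16 ± 0.16. In both genes the libraries ran in the common order and the groups overlapped. The remaining passenger subunits Birc5 (survivin) and Cdca8 (borealin) had log2 fold changes of -0.18 and -0.08, so 3 of the 4 subunits were below 0 and Aurkb was above it. Anln, which encodes the contractile ring protein anillin, had -0.13.

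All 5 spindle assembly genes had a negative fold change, with a median of -0.18, and all 5 followed the common order of libraries. Hmmr, a spindle and centrosome protein, had 113 and 139 CPM in Cyba-/-, against 123 and 187 CPM in WT, with a log2 fold change of -0.30 ± 0.25. Ckap2l and Ckap2 encode related proteins that stabilise spindle microtubules. Ckap2l stood at 109 and 124 CPM in Cyba-/-, against 119 and 146 CPM in WT, with a log2 fold change of -0.19 ± 0.16. Ckap2, with the fewest reads of the class, stood at 48.9 and 59.8 CPM in Cyba-/-, against 51.9 and 71.0 CPM in WT, with a log2 fold change of -0.18 ± 0.21. Tpx2, the activator of Aurora A on the spindle, had the most, at 183 and 224 CPM in Cyba-/-, against 200.3 and 253 CPM in WT, with a log2 fold change of -0.15 ± 0.18. Nusap1, a microtubule-bundling protein, had a log2 fold change of -0.13.

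The 4 anaphase genes were all lower on average in Cyba-/- marrow, with a median of -0.12. Espl1, the gene of separase, had 126 and 152 CPM in Cyba-/-, against 147.5 and 163 CPM in WT, and a log2 fold change of -0.16 ± 0.15. Cdc20, the APC/C activator that the checkpoint inhibits, had 108 and 132 CPM in Cyba-/-, against 120.1 and 145 CPM in WT, and a log2 fold change of -0.14 ± 0.17. Ube2c, the ubiquitin-conjugating enzyme of the APC/C, had 116.1 and 139.8 CPM in Cyba-/-, against 116.2 and 156 CPM in WT, the libraries numbered 1 being level, and a log2 fold change of -0.09 ± 0.20. Pttg1, the gene of securin, had the fewest reads of all 49 members, with 352 and 361 reads in Cyba-/-, against 328 and 419 reads in WT. These are 15.6 and 15.4 CPM in Cyba-/-, against 13.8 and 18.7 CPM in WT, so the WT libraries lay on either side of the Cyba-/- libraries.

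Mki67 and Top2a gave the most reads of the set. Mki67, at chr7:135689784-135716361 on the minus strand, encodes Ki-67, a coat of mitotic chromosomes and a common label of dividing cells. It had 833 and 1178 CPM in Cyba-/-, against 1063 and 1584 CPM in WT. Cyba-/- 1 was lowest and WT 2 highest, WT 1 lay below Cyba-/- 2, and the means were 1005 ± 244 CPM in Cyba-/- and 1324 ± 369 CPM in WT (SD, n = 2 each). The log2 fold change of -0.40 ± 0.29 was the lowest of the 49 (edgeR, adjusted p = 0.843). It stayed below 0 with any 1 library left out, between -0.67 and -0.08. Top2a, the gene of topoisomerase II alpha, which untangles sister chromatids, had 781 and 867 CPM in Cyba-/-, against 830 and 1035 CPM in WT. The order was the same, with a narrower spread, and the log2 fold change was -0.18 ± 0.17.

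**Figure D3:**
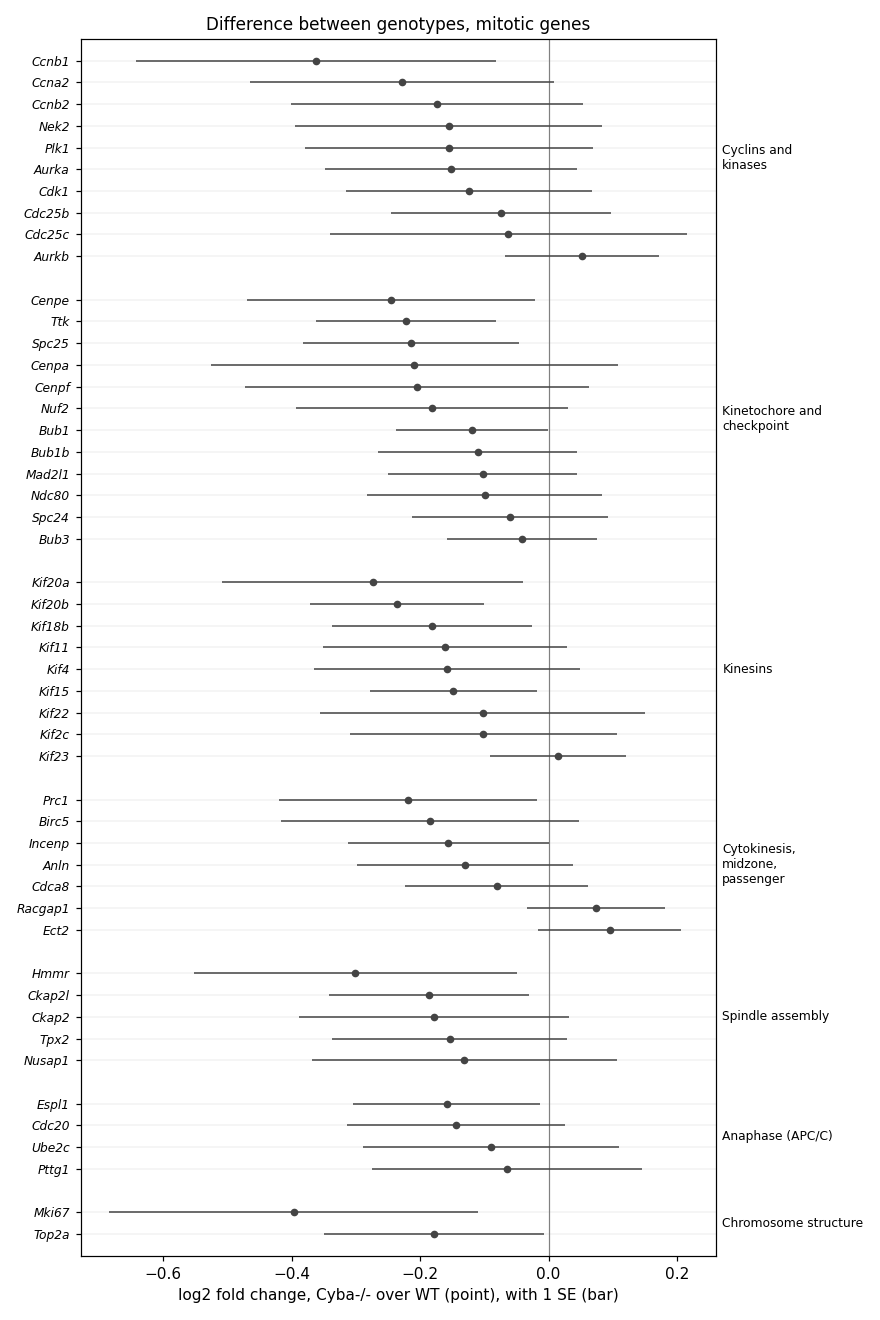
Points give the log2 fold change (Cyba-/- over WT) of the 49 mitotic genes by class, from edgeR with all 4 libraries, and bars give 1 standard error on each side. Points lie left of 0 for 45 genes, and every point is within 2 standard errors of 0.

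Levels of different genes can be compared only per transcript length, which the TPM values allow for the 22 members whose TPM readings were settled. Mean TPM over the 4 libraries was highest for Cdk1 at 280.2 TPM, Top2a at 245 TPM and Cenpa at 204 TPM. Next were Kif23 at 154 TPM, Ube2c at 154 TPM, Birc5 at 143 TPM and Espl1 at 126 TPM. These ranks rest on repaired TPM readings and on transcript lengths that the sources used here do not give. Cdk1 ranged over 209 and 316 TPM in Cyba-/-, against 248 and 348 TPM in WT, and Top2a over 198 and 270.2 TPM in Cyba-/-, against 228 and 285 TPM in WT, so these leaders overlapped. Cyclin transcripts were similar to each other, with means of 106 TPM for Ccna2, 95.1 TPM for Ccnb1 and 83.6 TPM for Ccnb2. The lowest means were 36.1 TPM for Ckap2l, 30.8 TPM for Cenpe, 29.1 TPM for Pttg1 and 20.4 TPM for Ndc80. Securin, whose CPM was the lowest of all members, was thus level per length with the kinetochore motor Cenpe. The 2 subunits of the NDC80 complex with settled values differed, at 20.4 TPM for Ndc80 and 74.2 TPM for Spc24, with the 4 libraries of each not overlapping those of the other.

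Most mitotic genes outside the set, 114 in 8 lists, were also lower on average in Cyba-/- marrow. Of these 97 had a negative log2 fold change and 17 a positive one, with a median of -0.14. None passed any of the 4 tests, which called at most 0.216% of all tested genes. None had an unadjusted edgeR p under 0.05, against 3.20% of all tested genes and 0.447% with a lower level in Cyba-/-. Both Cyba-/- libraries were below both WT libraries for 23 of the 114, or 20.2%, against 16.1% of all tested genes. Both were above for 7, against 17.6% of all tested genes. The medians moved with single libraries, but not all turned in sign. Without WT 2 the medians of the 8 lists lay between -0.05 and 0.04, and without Cyba-/- 1 between -0.10 and -0.02. The centrosome and cytokinesis, cohesin, spindle and kinesin, and outer kinetochore lists stayed below 0 with any 1 library left out. Their highest medians were then -0.05, -0.05, -0.02 and -0.002. All 18 further spindle and kinesin genes were below 0, with a median of -0.19. Among them Kif2a, a microtubule depolymerase, had 69.5 and 87.8 CPM in Cyba-/-, against 89.4 and 104 CPM in WT, and Ckap5, a microtubule polymerase, had 187 and 206 CPM in Cyba-/-, against 213 and 239 CPM in WT. All 8 condensin genes were below 0 with a median of -0.18, Smc4 and Smc2 at -0.21 and -0.26, and all 5 cohesin genes with a median of -0.11, Smc3 and Smc1a at -0.29 and -0.18. Of 17 other inner kinetochore genes 15 were below 0, with a median of -0.18, Cenpk at -0.40 and, on the other side, Mis18a at 0.11. Of 17 further outer kinetochore and checkpoint genes 14 were below 0, with a median of -0.12, Kntc1 at -0.22, Sgo1 at -0.30 and, on the other side, the histone kinase gene Haspin at 0.12.

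The list for the APC/C, the target of the checkpoint, held its subunits and the regulators Fzr1 and Fbxo5. In this list 14 of 16 genes were below 0, with a smaller median of -0.08. Anapc1, the largest scaffold subunit of the APC/C, had 244 and 272 CPM in Cyba-/-, against 296 and 329.5 CPM in WT. The groups did not overlap, and its p of 0.0949 was the smallest of the 114 genes (edgeR, adjusted p = 0.843). Anapc10 was at -0.27 and Anapc13 at 0.10. Centrosome and cytokinesis genes had 8 of 11 below 0, with Cit at -0.21 and Pcnt at -0.19. Cep55, which recruits the abscission machinery, went against its list, at 54.0 and 38.1 CPM in Cyba-/-, against 42.8 and 23.9 CPM in WT, a log2 fold change of 0.46 ± 0.35. For Cep55 Cyba-/- 1 was the highest library and WT 2 the lowest, the mirror image of the common order, and the groups overlapped. Regulators of mitotic transcription and entry had the median nearest to 0, -0.07, with 15 of 22 below 0. Arpp19, an inhibitor of the phosphatase PP2A, was at -0.21, and E2f7 at 0.11. E2f4, which encodes the E2F of the DREAM complex, had 151 and 233.5 CPM in Cyba-/-, against 203.5 and 315 CPM in WT, with a log2 fold change of -0.43 ± 0.32.

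S phase genes were also lower on average in Cyba-/- marrow, but fewer of them kept the common order of libraries. It was seen in 12 of 23, or 52.2%, against 73.5% of the members and 17.4% of all tested genes. All 23 were below 0, with a median of -0.22, and 9 of them, or 39.1%, had both Cyba-/- libraries below both WT libraries, against 16.1% of all tested genes. The S phase median was -0.03 without WT 2, -0.16 without Cyba-/- 1, -0.33 without Cyba-/- 2 and -0.37 without WT 1. Pole, the catalytic subunit of DNA polymerase epsilon, had 126 and 153 CPM in Cyba-/-, against 164 and 192 CPM in WT, and Pola1, that of polymerase alpha, had 145 and 147 CPM in Cyba-/-, against 161 and 189 CPM in WT. Neither passed edgeR's test (adjusted p = 0.843 for both). None of the 23 had an unadjusted edgeR p under 0.05, against 3.20% of all tested genes, and 0.447% with a lower level in Cyba-/-. At such shares the absence of any says little about these genes.

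Markers of the cell types in the fraction also differed between libraries. All 12 erythroid genes, among them Klf1, Gata1 and the globin genes, had the order Cyba-/- 1, WT 1, Cyba-/- 2, WT 2 that 36 of the 49 members had. Their summed level was 1547 and 4081 CPM in Cyba-/-, against 3061 and 6601 CPM in WT, their median log2 fold change was -0.81, and their median ratio of the highest to the lowest library was 4.24. The widest member, Mki67, reached a ratio of 1.90. The 5 granulocyte and monocyte progenitor genes, led by Mpo, ran the opposite way, with 15880 and 10360 CPM summed in Cyba-/-, against 11460 and 5550 CPM in WT.

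The 8 genes of maturing neutrophils summed to 1017 and 4292 CPM in Cyba-/-, against 411 and 1191 CPM in WT, and the 5 monocyte genes to 2699 and 2238 CPM in Cyba-/-, against 1827 and 1193 CPM in WT. The 7 genes of early B cells summed to 83.5 and 66.5 CPM in Cyba-/-, against 63.9 and 53.8 CPM in WT, the 8 stem and progenitor genes to 692 and 602 CPM in Cyba-/-, against 715 and 549.5 CPM in WT, and 5 of 6 megakaryocyte genes to 368 and 390 CPM in Cyba-/-, against 486 and 377 CPM in WT. The 5 plasma cell genes summed to 3536 and 1268 CPM in Cyba-/-, against 2043 and 514 CPM in WT, and 4 of 5 T cell genes to 18.5 and 9.10 CPM in Cyba-/-, against 13.01 and 5.80 CPM in WT. No marker was at 0 in any library, apart from Gp1bb and Trbc2, whose counts could not be read. Of the marker genes, 3 of 5 monocyte and 2 of 8 neutrophil genes had an unadjusted edgeR p under 0.05, against 3.20% of all tested genes. DESeq2 called 1 monocyte gene, against 0.216% of all tested genes. The adjusted p of edgeR was at least 0.843 for every marker gene. The part of these cell types in the mitotic gene levels was not tested.

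**Figure D4:**
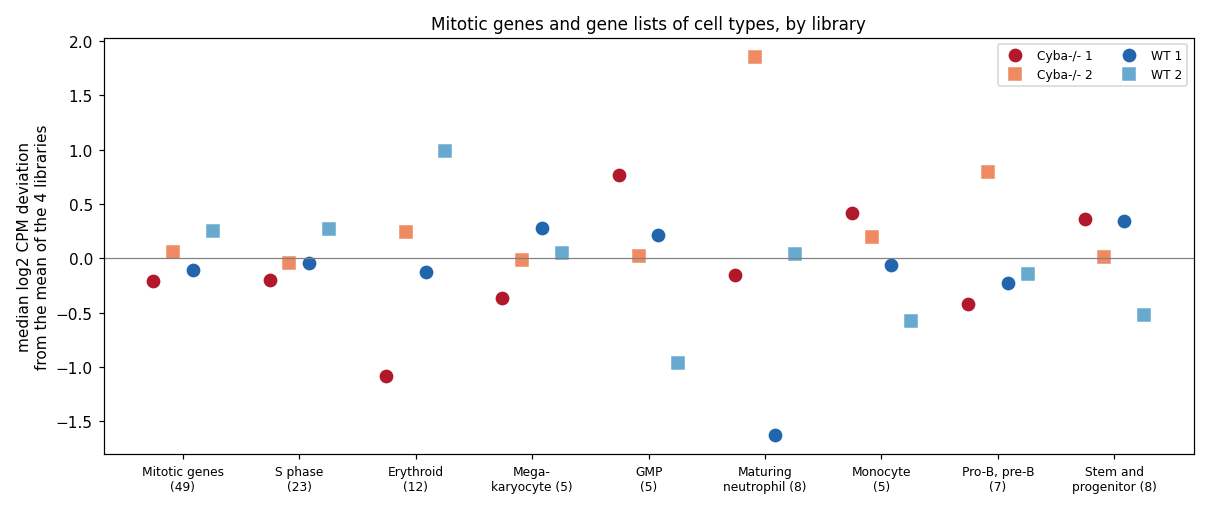
For each gene list (number of genes in brackets), points give the median over its genes of the log2 CPM deviation from the mean of the 4 libraries, red and orange for Cyba-/- 1 and 2, dark and light blue for WT 1 and 2. The mitotic, S phase and erythroid lists all have Cyba-/- 1 lowest and WT 2 highest, with the erythroid points spread furthest of the 3.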

How the data were processed

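The authors deposited, for each library, a table of estimated counts and a table of TPM values, each with 22520 Ensembl genes and 4 lane columns, per the file headers. Salmon, DESeq2 and build GRCm38 are named in the submitters' processing notes. The tools' versions, gene models and strandedness are not given in the sources used here. Libraries were made with the Illumina TruSeq RNA kit v2, per the labels' protocols.

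In the deposited count and TPM tables, any number above 1 that had 3 or more decimals had lost its decimal point. Of 360320 count values, 24.8% had more than 1 reading. The readings were weighed jointly per gene from the agreement of lanes (negative binomial, dispersion 0.005), of TPM with counts through gene length, and of libraries (a heavy-tailed t with 3 df and a scale of 0.2 natural log units). Genes whose library totals had an expected error above both 5% and 1 read were dropped. This kept 22139 genes and left out 381, of which 213 had a mean of at least 40 reads. Of the 49 mitotic genes, 26 had a damaged count value and 23 had none. All 16 values of Anln were damaged; its fold change does not depend on the place of the point if it is the same in all of them. A small share of readings may be wrong. Lanes were summed and rounded to whole numbers. Totals per library lay between 22424963 and 23707388 reads, and members had 328 to 35532 reads. No other column of sample values was left unused.

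Symbols came from GENCODE vM21, which matched 22384 identifiers and not 136. The main test was edgeR 4.0.16 (R 4.3.3), quasi-likelihood F test with TMM factors and filterByExpr, two-sided, Benjamini-Hochberg adjusted over 13867 genes at 0.05. The SE is the log2 fold change divided by the root of F. CPM use TMM-scaled library sizes, and log2 CPM a prior count of 2. TPM were used where the repaired reading was settled (22 members), with a minimum mean of 1 TPM and a pseudocount of 1 or 0.1 for log2 values tested with limma 3.58.1. Alternatives were other scalings, filters and tools (DESeq2 1.42.0, limma-voom, the likelihood ratio test), a repair without the tie between libraries, undamaged genes alone, the threshold of 0.1, leaving out each library and a replicate block. The repair ran in Python 3.11.15 with numpy 2.4.6. Repair and tests were tested on simulated data.

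Values are given per library for, in each class, the 3 members with the smallest p, those with the highest and lowest mean CPM and those of opposite sign, and some further members chosen for their place among the libraries after their values were seen. Other lists give the 2 smallest p and the largest opposite change. A gene that this rule takes is not reported here. The members and lists were chosen with earlier results of these data known, so lists have no test. Groups came from sample titles.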

Additional observations from a re-analysis of the deposited data

How the results depend on the processing

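No mitotic gene passed the threshold under the other scalings, filters, tools, units, repairs and the threshold of 0.1 that were tried, or with any 1 library left out. The count of all genes past the threshold was 30 with DESeq2, 22 with the edgeR likelihood ratio test, 1 with limma-trend on log2 TPM at either pseudocount and between 0 and 3 with 1 library left out. Libraries with the same replicate number deviated together (correlation 0.60 across genes), but the labels do not say that the number marks anything shared. With the number as a replicate block, edgeR called 1095 genes and 1 member. The log2 fold change of Ccnb1 was then -0.36 (edgeR, adjusted p = 0.0408), with 45 members still lower in Cyba-/- marrow. The number of members lower in Cyba-/- was 45 under each other scaling, filter and count test, 20 of 23 among those with no damaged count, 33 of 36 with the untied repair and 21 of 22 on either TPM scale, because fewer members entered. It lay between 13 and 46 with 1 library left out. On the TPM scale the log2 fold change turned to -0.080 (pseudocount 1) and -0.081 (pseudocount 0.1) for Kif23, and to -0.029 at both for Racgap1; the cause was not tested. Of the 45 members below 0, 13 stayed there whichever library was left out. For 33 members the sign turned with at least 1 library left out. The log2 fold changes then ran from -0.45 to 0.041 in Ccna2, -0.39 to 0.093 in Ccnb2, -0.31 to 0.10 in Cdk1, -0.26 to 0.10 in Cdc25b, -0.32 to 0.24 in Cdc25c, -0.33 to 0.057 in Aurka, -0.0034 to 0.12 in Aurkb, -0.37 to 0.078 in Plk1 and -0.39 to 0.10 in Nek2. They ran from -0.23 to 0.018 in Bub1b, -0.10 to 0.031 in Bub3, -0.23 to 0.044 in Mad2l1, -0.51 to 0.18 in Cenpa, -0.46 to 0.024 in Cenpe, -0.49 to 0.079 in Cenpf, -0.29 to 0.13 in Ndc80, -0.37 to 0.041 in Nuf2 and -0.19 to 0.091 in Spc24. The ranges were -0.34 to 0.051 in Kif11, -0.50 to 0.012 in Kif20a, -0.29 to 0.11 in Kif2c, -0.36 to 0.037 in Kif4, -0.35 to 0.18 in Kif22, -0.28 to 0.016 in Anln, -0.43 to 0.12 in Birc5 and -0.20 to 0.054 in Cdca8. The rest had -0.30 to 0.024 in Tpx2, -0.36 to 0.16 in Nusap1, -0.56 to 0.035 in Hmmr, -0.38 to 0.065 in Ckap2, -0.29 to 0.0051 in Cdc20, -0.28 to 0.14 in Ube2c and -0.26 to 0.17 in Pttg1. Every member had at least 328 reads in each library, and depth was not varied. With 1 library left out, the lone sample of its group was assumed to vary like the other group.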
